A study of Rattus norvegicus with 10 samples.

Results

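Cd74 and 4 chains of the class II major histocompatibility complex (MHC), RT1-Da, RT1-Bb, RT1-Ba and RT1-Db1, were described rat by rat in the hypothalamus. They are 5 of 14217 genes that the annotation of the Affymetrix rat genome array names alone on a probe set, and they have 10 of its 31042 probe sets. The members were chosen from earlier results on these rats, in which Cd74 and RT1-Bb had been called between diets, so the diet difference of a member is given here as a description with no test. Male Wistar rats of 3 weeks received powdered feed for 2 days, and then solid chow (C group, Chow 1 to Chow 5) or powdered feed (P group, Powder 1 to Powder 5) for 8 days, until 4 weeks of age. Both groups had free access to feed and water. RNA of the whole hypothalamus of each rat was read on 1 array, so that the 5 samples of a group are 5 animals. The comparison asks whether chewing solid feed changes hypothalamic transcripts.

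MHC class II molecules are pairs of an alpha and a beta chain that show peptides from engulfed material to CD4 T cells. In the rat, RT1.D (alpha chain RT1-Da, beta chain RT1-Db1) is the counterpart of human HLA-DR, and RT1.B (alpha chain RT1-Ba, beta chain RT1-Bb) is that of HLA-DQ. Cd74, the invariant chain, binds the new pairs in the endoplasmic reticulum, blocks their groove and guides them to the endosome. There proteases cut it away and RT1-DM exchanges its last fragment for a peptide. The chains and Cd74 are switched on together by the coactivator Ciita, which sits on factors bound to the X and Y boxes of their promoters. In the healthy brain these genes are known mainly from macrophages and dendritic cells of the meninges, choroid plexus and perivascular spaces, and little from resting microglia.

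The promoters of all 5 genes were taken from RefSeq (GRCr8, the Brown Norway reference, not the Wistar rats measured), as windows of 250 bases before to 50 after the annotated start, to show what the genes share and where they differ. The letters of the Y box, CTGATTGG, of the CCAAT pentamer that they contain in reverse complement, and of an X box, CCNAGNNAC, were searched on both strands. The Y box letters were present in all 4 chains, with the first base at -52 in RT1-Da, -46 in RT1-Ba, -64 in RT1-Bb and -83 in RT1-Db1, and absent from the window of Cd74. Of 33469 promoters of this length, 3.5% held the Y box letters, 37.5% CCAAT and 17.7% the X box letters, and 0.648% held X and Y box letters together. RT1-Da and RT1-Bb held both. The exact X box letters were not found in the windows of RT1-Ba and RT1-Db1. Their printed stretches hold gctggcaac (RT1-Ba) and actagcaac (RT1-Db1) before the Y box, which differ from these letters and were not counted. That of Cd74 holds attagcaac and cgaatcag toward its 3′ end. They differ from the X box letters and from the reverse complement of the Y box letters, and were not counted either. Only exact letters were searched, so a window without a match is not shown to lack the box. Cd74 held the X box letters at -220 and again at 14, and a CCAAT at -189. These are matches of letters and no evidence of binding. The stretches around the Y box are printed 5′ to 3′, with X and Y box letters in capitals. That of RT1-Da is at chr20:4515313-4515382 on the plus strand, that of RT1-Ba at chr20:4576961-4577030 on the plus strand, that of RT1-Bb at chr20:4604163-4604232 on the minus strand and that of RT1-Db1 at chr20:4560226-4560295 on the minus strand.
RT1-Da: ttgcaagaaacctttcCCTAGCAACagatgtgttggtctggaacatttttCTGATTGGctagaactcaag
RT1-Ba: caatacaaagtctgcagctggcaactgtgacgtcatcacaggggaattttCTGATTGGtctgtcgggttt
RT1-Bb: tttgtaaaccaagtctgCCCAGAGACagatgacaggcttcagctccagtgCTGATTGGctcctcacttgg
RT1-Db1: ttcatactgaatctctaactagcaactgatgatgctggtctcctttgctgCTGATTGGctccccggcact
For Cd74, which lies on another chromosome, the 250 bases before the start are given (chr18:56526956-56527205, plus strand), with the X box and CCAAT letters in capitals.
Cd74: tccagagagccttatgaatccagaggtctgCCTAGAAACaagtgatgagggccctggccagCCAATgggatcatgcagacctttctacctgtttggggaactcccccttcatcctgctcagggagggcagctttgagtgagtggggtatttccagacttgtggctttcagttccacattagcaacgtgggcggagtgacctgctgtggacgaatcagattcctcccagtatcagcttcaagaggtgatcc

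**Figure D1:**
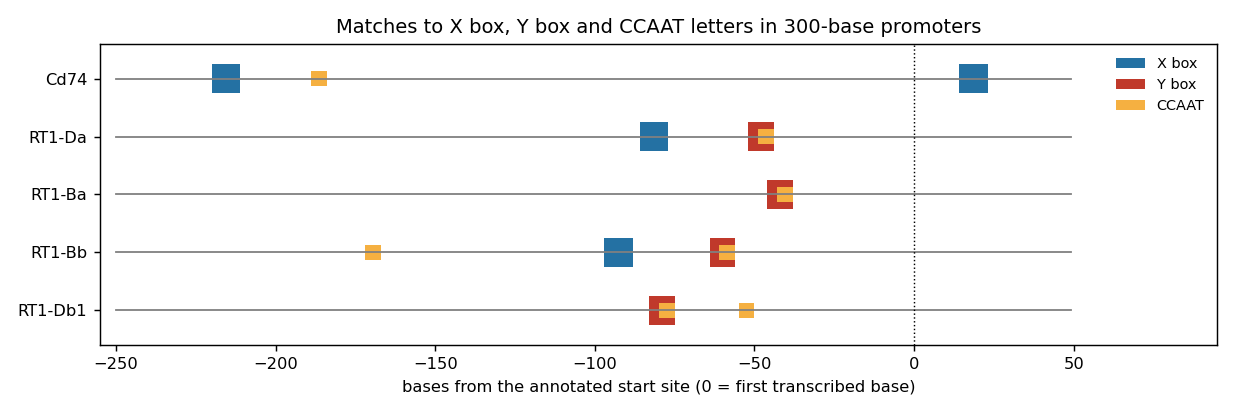
Matches to the letters of the X box (blue), Y box (red) and CCAAT (orange) in the promoter windows of the 5 genes, by distance in bases from the annotated start (dotted line, 0). The 4 chains hold the Y box letters between -83 and -39, and Cd74 holds none.

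The array values are log2 signals, so 1 unit is a 2-fold difference. Their summarization by factor analysis keeps a probe set almost constant where its probes share no variation over the arrays. Of all probe sets, 92.6% had a standard deviation (SD) over the 10 rats under 0.001. They are called flat here, which says only that no shared variation was read. Flat does not mean that the RNA was absent or that it was the same in every rat. Of the 10 probe sets of the members, 5 varied and 5 were flat. The varying probe sets were the one of Cd74, the one of RT1-Da, 1 of 4 of RT1-Ba and both of RT1-Bb. Both probe sets of RT1-Db1 were flat, at 6.35 and 6.78, so for the beta chain of RT1.D no variation above 0.001 could be read. Signals of different probe sets are not comparable as levels, and only the differences between rats are set side by side.

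Cd74 was high in 2 rats of the C group and lower in all others. Its log2 signal was 8.55, 7.04, 7.43, 8.38 and 7.04 in Chow 1 to Chow 5, and 6.87, 7.74, 7.73, 6.95 and 7.05 in Powder 1 to Powder 5. Chow 1 and Chow 4 lay above every P rat, and the largest step in the order of rats, 0.64, separated them from Powder 2. The other 3 C rats lay within the range of the P group. From the lowest rat, Powder 1, to the highest, Chow 1, the signal differed 3.22-fold (1.69 on the log2 scale), and the SD of 0.61 was at percentile 99.9 of all probe sets.

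RT1-Da, the alpha chain of RT1.D, was high in the same rats. Its log2 signal was 7.72, 6.80, 6.78, 7.74 and 6.74 in Chow 1 to Chow 5, and 6.57, 7.36, 7.20, 6.31 and 6.86 in Powder 1 to Powder 5. Chow 4 and Chow 1 were again the highest, Powder 2 and Powder 3 followed in that order for both genes, and Powder 1 and Powder 4 were the lowest of both. The groups overlapped, with 3 C rats below the mean of the P group. The lowest and the highest rat differed 2.7-fold (1.43 on the log2 scale).

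Over the 10 rats the log2 signals of Cd74 and RT1-Da had a Pearson r of 0.95 and a Spearman rho of 0.94. Without Chow 1 and Chow 4, the 2 rats farthest from the median of Cd74, r was 0.86 and rho 0.90 over the remaining 8 rats, so the shared order did not rest on these 2 animals. Leaving out any 1 rat kept r between 0.92 and 0.97. RT1-Da changed by 0.75 log2 units for each log2 unit of Cd74. No p is given for these relations, since the genes were chosen with results of the same rats known, and each pair of values comes from 1 array.

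**Figure D2:**
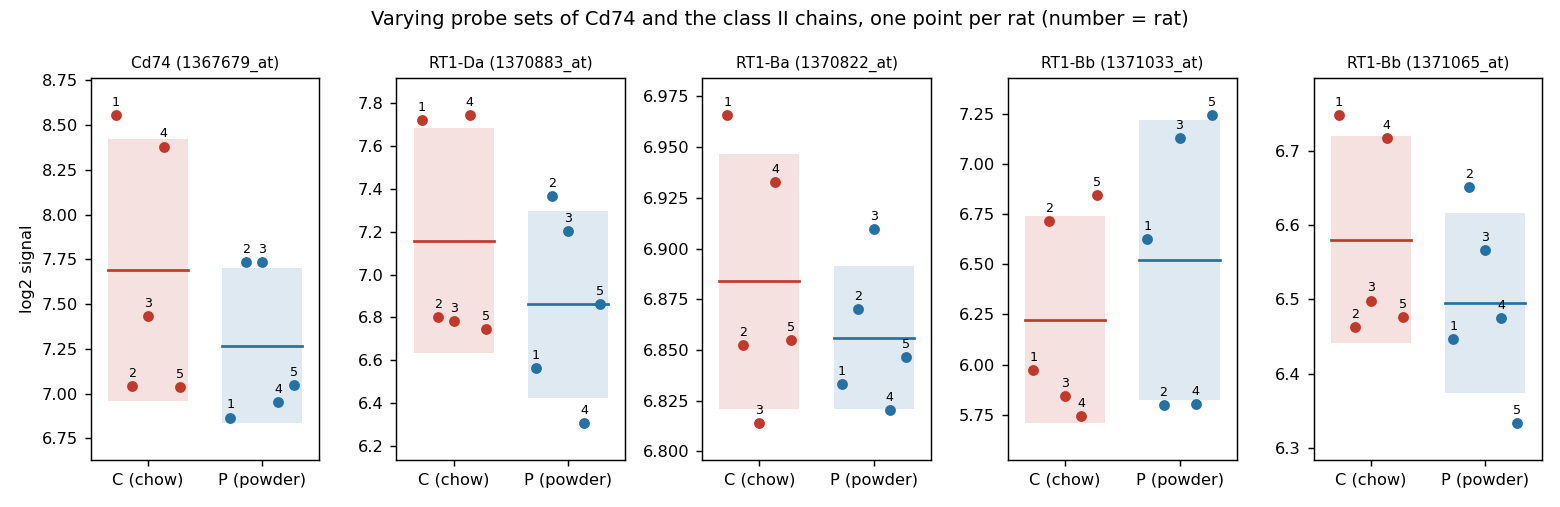
Log2 signal of the 5 varying probe sets of Cd74 and the class II chains in each rat (points, numbered by rat), with the group mean (line) and 1 SD on each side (shaded, n = 5). The vertical axes differ and do not start at 0. Chow 1 and Chow 4 are the 2 highest of all rats in every panel but that of 1371033_at of RT1-Bb, where Chow 4 is the lowest.

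RT1-Ba, the alpha chain of RT1.B, showed the same rats on a much narrower scale. Probe set 1370822_at read 6.97, 6.85, 6.81, 6.93 and 6.85 in Chow 1 to Chow 5, and 6.83, 6.87, 6.91, 6.82 and 6.85 in Powder 1 to Powder 5. Chow 1 and Chow 4 were above every P rat, and the whole range was 0.15. Its r with Cd74 was 0.89 (rho 0.75, n = 10) and fell to 0.62 without Chow 1 and Chow 4 (n = 8). Its slope was 0.07 log2 units for each log2 unit of Cd74. The other probe sets of RT1-Ba were flat, 1377334_at at 6.60, 1381593_x_at at 7.69 and 1392334_at at 8.05.

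RT1-Bb, the beta chain that pairs with RT1-Ba, was read by a pair of probe sets that did not move together. Probe set 1371065_at followed Cd74. It read 6.75, 6.46, 6.50, 6.72 and 6.48 in Chow 1 to Chow 5, and 6.45, 6.65, 6.57, 6.47 and 6.33 in Powder 1 to Powder 5. Chow 1, Chow 4, Powder 2 and Powder 3 were the highest, in the order of Cd74. Its r with Cd74 was 0.92 (rho 0.84, n = 10) and 0.79 without Chow 1 and Chow 4 (n = 8), with a slope of 0.20. With RT1-Da its r was 0.85 (rho 0.71, n = 10) and 0.61 without these 2 rats (n = 8).

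Probe set 1371033_at of the same gene divided the rats in another way. It read 5.97, 6.72, 5.85, 5.75 and 6.84 in Chow 1 to Chow 5, and 6.63, 5.80, 7.13, 5.80 and 7.24 in Powder 1 to Powder 5. The values lay at 2 levels, 5.75 to 5.97 in Chow 1, Chow 3, Chow 4, Powder 2 and Powder 4, and 6.63 to 7.24 in Chow 2, Chow 5, Powder 1, Powder 3 and Powder 5. The step of 0.66 between them was 43.9% of the range, and no rat lay inside it. The low level held 3 C and 2 P rats and the high level 2 C and 3 P rats.

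The r of 1371033_at with Cd74 was -0.46 (rho -0.32, n = 10). Without Chow 1 and Chow 4 it was -0.18 (rho -0.02, n = 8). As the values lay at 2 levels, r is only a rough measure here. Over the 10 rats the low level leaned toward those with high Cd74. The 5 rats highest for Cd74 were also the 5 highest on 1371065_at, and 4 of them (Chow 1, Chow 4, Powder 2 and Chow 3) were at the low level of 1371033_at, with Powder 3 at the high level. Of the other 5 rats, 4 were at the high level and Powder 4 was at the low one. Chow 4, the second highest rat for Cd74, had the lowest value of 1371033_at. Powder 2 and Powder 3 differed by less than 0.01 in Cd74 and read 5.80 and 7.13 on 1371033_at. Powder 1 and Powder 4 were the lowest of all rats for Cd74 and read 6.63 and 5.80. On 1371065_at, Powder 5 was the lowest rat at 6.33, and on 1371033_at it was the highest at 7.24. Why the pair of probe sets differed was not tested. Probe sequences and the part of the transcript each probe set reads were not used here.

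**Figure D3:**
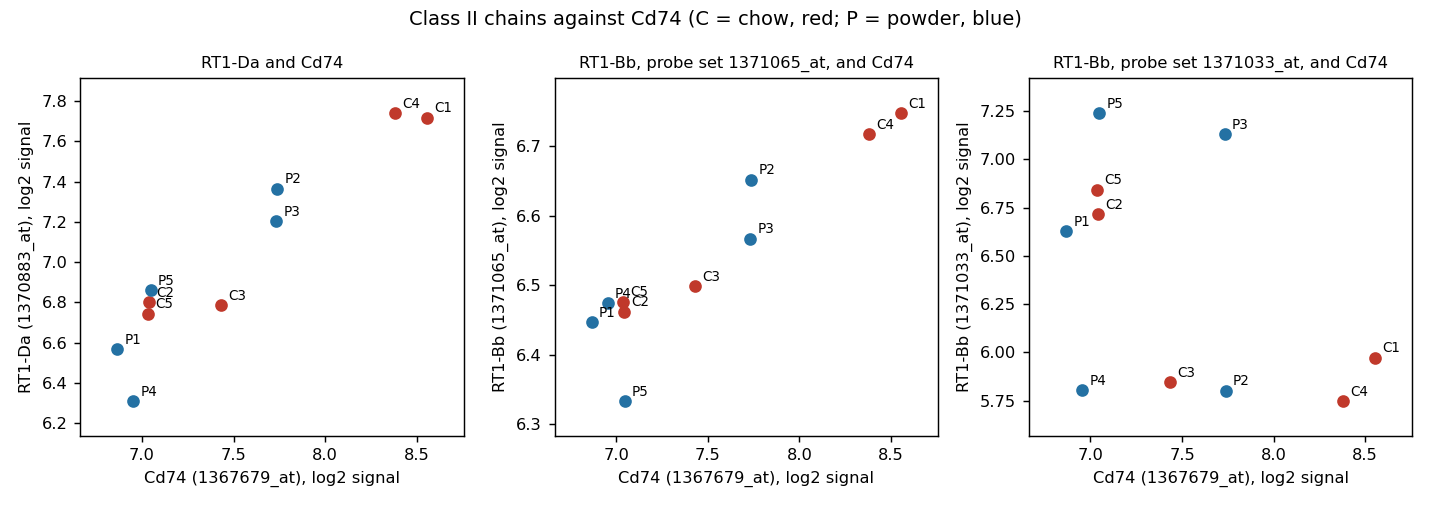
Log2 signal of RT1-Da and of the pair of RT1-Bb probe sets against that of Cd74, 1 point per rat (C1 to C5 chow, red, and P1 to P5 powder, blue). RT1-Da and 1371065_at climb with Cd74, and 1371033_at lies at 5.75 to 5.97 in 5 rats and at 6.63 to 7.24 in the other 5. Of the 5 rats highest for Cd74, 4 are at the low level and Powder 3 is at the high one.

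The order of the rats was also compared in the flat probe sets, although their values hardly differ. The 4 rats highest for Cd74, namely Chow 1, Chow 4, Powder 2 and Powder 3, were the 4 highest in 5 of the other 9 probe sets of the members, against 437 of all 31042 probe sets (1.41%) and 12.4% of the 1391 probe sets with an SD above 0.1. These 5 were the probe set of RT1-Da, 1370822_at of RT1-Ba, 1371065_at of RT1-Bb and 2 flat ones. In 1377334_at of RT1-Ba they were highest within a range of 0.0016, and in 1370383_s_at of RT1-Db1 within 0.00053. Flat 1381593_x_at of RT1-Ba had Chow 5, Powder 3, Powder 5 and Chow 2 as its highest, which were also the 4 highest of 1371033_at of RT1-Bb. Its range was 0.00043. The list of members and the 4 rats were picked from these values, so the counts are a description.

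Between the diets, the mean of Cd74 was 7.69 ± 0.73 (SD, n = 5) in C rats and 7.27 ± 0.43 in P rats, which is 0.42 higher (standard error, SE, 0.38). RT1-Da differed by 0.30 (SE 0.30), with means of 7.16 ± 0.52 in C rats against 6.86 ± 0.44 in P rats. RT1-Ba 1370822_at differed by 0.03 (SE 0.03) and RT1-Bb 1371065_at by 0.09 (SE 0.08). RT1-Bb 1371033_at went the other way, with 6.22 ± 0.51 in C rats and 6.52 ± 0.69 in P rats, a difference of -0.30 (SE 0.39). No member had groups that did not overlap.

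Without Chow 1 and Chow 4 the difference was -0.10 for Cd74 and -0.08 for RT1-Da, opposite in sign, and -0.02 for both 1370822_at and 1371065_at. It was -0.05 for 1371033_at.

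Rank products, the method named in the study's methods, compare each C rat with each P rat and order the fold changes of these pairs over all probe sets. They estimate a false discovery rate (FDR). By this method 298 probe sets were called higher in the C group (0.960% of those tested) and 249 lower (0.802%). Of the members, 2 were called higher, Cd74 (FDR 0.0011) and RT1-Da (FDR 0.0063), and 1 lower, RT1-Bb by 1371033_at (FDR 0.0036). Since the diet contrast chose the members, nothing is read from these calls or from how often they stayed when rats were left out, which are given as a description. Probe set 1371065_at was not called (FDR 0.063).

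With 1 rat left out, RT1-Da was not called without Chow 1, Chow 4 or Powder 4, and 1371033_at was not called without Powder 3 or Powder 5. Cd74 was called without any 1 rat. None of the 3 calls was made without Chow 1 and Chow 4 together, and none when only the 1391 probe sets with an SD above 0.1 were ranked, where 1 probe set was called higher and 4 lower. Limma, a linear model that uses the spread between rats, called no probe set of the whole table (0% at an adjusted p under 0.05, smallest adjusted p 0.986). It gave 1100 probe sets an unadjusted p under 0.05, where evenly spread p values would give 1552.

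Most of the other genes of the pathway were flat, as 92.6% of all probe sets were, so that for them no pattern could be compared with that of Cd74. RT1-DMa, the alpha chain of the peptide exchanger, had an SD of 0.08 and a difference of -0.0049, and its partner RT1-DMb was flat at 8.26. RT1-Db2, RT1-DOa and RT1-DOb were among 5 entries of this list that no probe set names alone. All 10 measured genes of class II transcription were flat. They include Ciita, whose probe set 1369214_a_at stood at 7.53, the RFX subunits Rfx5, Rfxap and Rfxank, which bind the X box, and the NF-Y subunits Nfya, Nfyb and Nfyc, which bind CCAAT. Of 13 genes for breakdown of the invariant chain and peptide loading, 0 were called in either direction and 10 were flat, among them Ctss, a protease known for the late cuts in Cd74, at 11.18. Of the 3 that varied, Ctsl (1370244_at) differed by 0.04. Its r with Cd74 was 0.51, and 0.28 without Chow 1 and Chow 4. For the other varying genes, Marchf8 and Mif, r was -0.06 and 0.11. With all probe sets counted, Sppl2a, which cleaves the remaining Cd74 fragment in the membrane, passed the threshold on 1395744_at, higher in C rats by 0.23 (FDR 0.0074). Its highest rat on that probe set was Powder 5 at 7.32, and its r with Cd74 was 0.19. All 14 measured genes of the interferon-gamma response, the main inducer of Ciita, were flat, with Ifng at 5.92.

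Markers of antigen-presenting cells were described beside the members. In bulk tissue, fewer cells of a type and less RNA per cell cannot be told apart. Of 13 measured microglial genes, 7 were flat, among them Cx3cr1, Aif1, Csf1r, Itgam and Trem2. C1qa, C1qb and C1qc, the subunits of the complement component C1q that microglia make, varied with an r to Cd74 of 0.25, 0.17 and 0.25, and Tmem119 with 0.12. P2ry12, a receptor for nucleotides on resting microglia, had an r of 0.43 on 1380822_at and 0.62 on 1368728_at, and of 0.02 and 0.18 without Chow 1 and Chow 4 (n = 8). Of the microglial genes, 1 was called higher in the C group, Olfml3 (difference 0.17, FDR 0.035), and it was -0.02 without Chow 1 and Chow 4. Olfml3 read 7.85 in Chow 1 and 7.77 in Chow 4 and between 7.14 and 7.53 in all other rats, with an r to Cd74 of 0.94 over 10 rats and 0.75 over 8.

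Macrophages at the borders of the brain gave 10 measured genes, of which 0 were called in either direction and 7 were flat, with Cd163 and Lyve1 among them. The 3 that varied had an r with Cd74 of 0.86 to 0.93 over 10 rats, which was lower without Chow 1 and Chow 4. Mrc1, the mannose receptor CD206, read 7.59, 6.86, 6.86, 7.40 and 7.06 in Chow 1 to Chow 5, and 7.0, 7.22, 7.18, 7.07 and 7.04 in Powder 1 to Powder 5. Its r with Cd74 was 0.87 (rho 0.67, n = 10) and 0.52 without Chow 1 and Chow 4 (n = 8). For Maf, a transcription factor of these macrophages and of other cells, r was 0.93 (0.85 over 8 rats). For Pf4, a chemokine, it was 0.86 (0.64 over 8 rats) within an SD of 0.04. The summed log2 signal of the list ranged from 69.1 to 70.5 over C rats and from 69.2 to 69.8 over P rats.

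Of 7 dendritic cell genes, 6 were flat, among them Flt3, Itgax and Clec9a. Cd83, a surface marker of mature dendritic cells, was called lower in the C group (-0.09, FDR 0.014) with an r to Cd74 of -0.63, which was 0.10 without Chow 1 and Chow 4. All 5 B cell genes and all 10 T cell genes were flat. Over these 9 lists of antigen presentation and immune cells, 83 genes were measured and 1 was called in each direction. Of all probe sets, 0.960% were called higher and 0.802% lower, so these counts are not read as a result about the lists.

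The genes most like Cd74 over the rats were not on the immune lists, nor on that of leptomeningeal fibroblasts. Of 1014 probe sets that name a single gene other than Cd74 and have an SD above 0.1, the 10 with the highest r were those of S100a6 (0.991), a calcium-binding protein, Ppp1r1a (0.986 and 0.971), an inhibitor of protein phosphatase 1, Slc47a1 (0.984), an exporter of organic cations, Efemp1 (0.977), Timp1 (0.974), Thbd (0.971), Ddr2 (0.970), Emp3 (0.969) and Mfap5 (0.967). Efemp1 and Mfap5 are matrix proteins, Timp1 inhibits metalloproteinases, Ddr2 is a collagen receptor and Thbd is thrombomodulin. S100a6 read 7.86 in Chow 1 and 7.77 in Chow 4, 7.39 and 7.32 in Powder 2 and Powder 3, and 6.80 to 7.14 in the others. The highest probe set of the leptomeningeal list stood at place 25, RT1-Da at place 30 and RT1-Bb 1371065_at at place 66. Of these 10 probe sets, 4 were also among the 10 highest by Spearman rho, and 4 without Chow 1 and Chow 4. An r above 0.9 was reached by 102 probe sets of 92 genes, 9 of them on the list of leptomeningeal fibroblasts and 2 on the immune lists (Olfml3 and Maf). On the probe sets that stood for the genes, 16 of 17 leptomeningeal genes had an SD above 0.1, and on the immune lists 5 microglial and 2 border macrophage genes of the 83 did.

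Leptomeningeal fibroblasts are cells of the thin membranes on the surface of the brain. The mean deviation of their 16 varying genes from the mean over rats was 0.85, -0.20, -0.44, 0.64 and -0.21 in Chow 1 to Chow 5, and -0.69, 0.25, 0.42, -0.42 and -0.20 in Powder 1 to Powder 5. As for Cd74, the highest rats were Chow 1, Chow 4, Powder 3 and Powder 2, and the lowest was Powder 1. The r of the 16 genes with Cd74 ran from 0.87 to 0.95 (n = 10). Ogn, a small matrix proteoglycan, read 9.96 in Chow 1 and 9.66 in Chow 4, against 7.79 to 9.46 in the other rats. Rank products called 15 of 17 measured genes of this list higher in the C group and 0 lower. Over all probe sets the shares were 0.960% and 0.802%. Without Chow 1 and Chow 4, rank products called 0 of these genes higher and 8 lower, and 47 and 260 of all probe sets. Over the list the summed log2 signal ranged from 138.1 to 158.8 over C rats and from 134.2 to 152.0 over P rats. Foxc1, the 1 flat gene of the list, stood at 6.44. What part these cells had in the signal of Cd74 and RT1-Da was not tested.

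**Figure D4:**
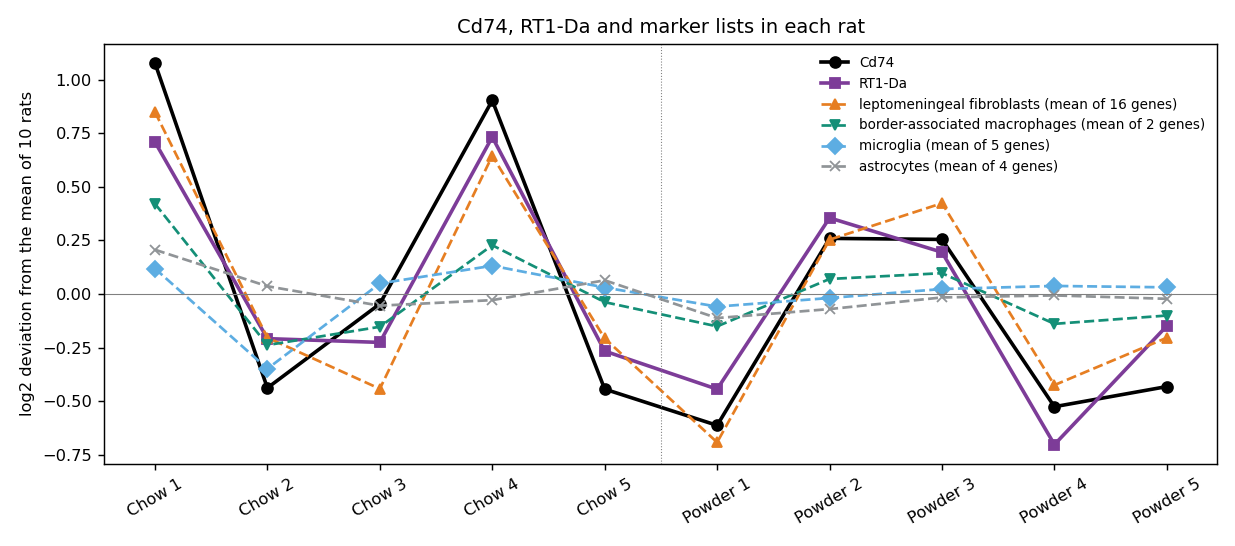
Deviation of Cd74, of RT1-Da and of the mean of the varying genes of 4 marker lists from their mean over 10 rats, in log2 units. Lines join points only to guide the eye, and rats have no order. The leptomeningeal list (orange) has its highest values in Chow 1 (0.85) and Chow 4 (0.64) as Cd74 does (black), and the microglial list (light blue) lies between -0.06 and 0.13 in all rats but Chow 2 (-0.35).

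For the 2 levels of 1371033_at, the other genes of the RT1 complex were compared. On chromosome 20 of GRCr8 the order of protein-coding genes is RT1-Da, RT1-Db2, RT1-Db1, RT1-Ba and RT1-Bb, so RT1-Bb is next to RT1-Ba, and RT1-DMb and RT1-DMa are 6 and 7 places from it. Of 31 RT1 probe sets that name a single gene, 11 had an SD above 0.1, from 7 of 18 genes: RT1-Da, RT1-Bb, and RT1-CE16, RT1-S3, RT1-T24-3, RT1-T24-4 and RT1-N2, which are of class I and lie 81 to 115 protein-coding genes from RT1-Bb. Class I molecules show peptides from inside the cell to CD8 T cells.

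RT1-CE16, on probe set 1370463_x_at, also read at 2 levels. It was 6.72, 6.64, 6.53, 6.69 and 7.57 in Chow 1 to Chow 5, and 7.47, 6.69, 7.65, 6.66 and 8.07 in Powder 1 to Powder 5. The 4 high rats, Chow 5, Powder 1, Powder 3 and Powder 5, were all on the high level of 1371033_at. Chow 2 was the exception, high on 1371033_at (6.72) and low on RT1-CE16 (6.64). RT1-S3 (1388212_a_at) had the same 4 rats as its highest, at 7.94 to 8.32, against 7.39 to 7.73 in the others, and its other 3 probe sets did as well.

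RT1-T24-3 was low where RT1-CE16 was high. It read 8.03, 7.98, 7.98, 8.10 and 7.37 in Chow 1 to Chow 5, and 7.45, 8.04, 7.47, 8.15 and 6.37 in Powder 1 to Powder 5. RT1-T24-4 (1389734_x_at) was at 7.13 to 7.95 in the 4 rats, against 8.17 to 8.44 in the others. RT1-N2 was at 5.69 to 6.24 in the 4 rats, against 6.56 to 6.78. For all 5 class I genes Chow 2 read with the rats of the low level of 1371033_at. Rank products called RT1-CE16 (-0.48) and RT1-S3 (-0.23) lower in the C group, and RT1-T24-3 (0.39), RT1-T24-4 (0.35) and RT1-N2 (0.24) higher. Of the 4 rats, 3 were in the P group and 1 in the C group. No rat was grouped by these levels for a test, and the genotypes of the rats at RT1 were not analysed here. Whether a class I probe set also reads other genes was not tested.

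**Figure D5:**
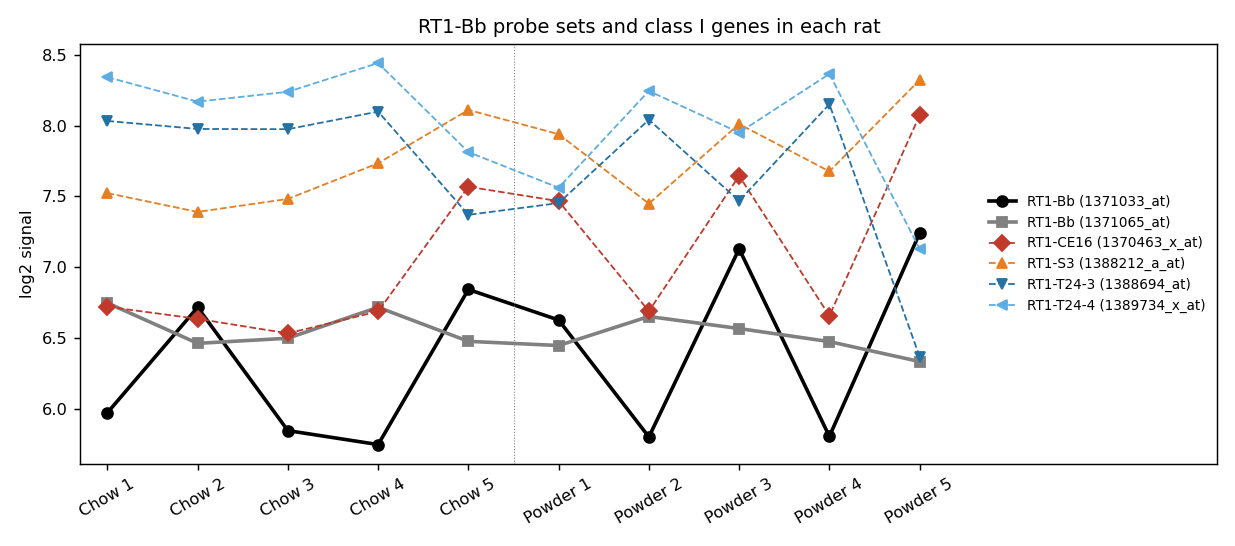
Log2 signal of the pair of RT1-Bb probe sets and of 4 class I genes in each rat. Lines join points only to guide the eye, and rats have no order. RT1-CE16 (red) is at 7.47 or above in Chow 5, Powder 1, Powder 3 and Powder 5, where RT1-Bb 1371033_at (black) is also high and RT1-T24-3 (dark blue) is low, and Chow 2 is high on 1371033_at and low on RT1-CE16.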

How the data were processed

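Hypothalamic RNA of 10 rats was read on 1 array each, and groups were taken from the sample titles. The deposited values are log2 signals, which the authors made from the scans in R by a factor analysis method (FARMS). They lay between 5.23 and 13.96 and were used as they are. Arrays have no read depth, so precision is set by the spread between 5 rats a group. Pairwise correlations between arrays were 0.9970 to 0.9991. The table has 31099 probe sets, and 57 that are hybridization controls were set aside. The annotation names a single gene for 20826 probe sets, several for 436 and none for 9780, and 20751 of the first were found in the RefSeq gene table by gene ID.

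The members and all lists were chosen with earlier results of these data known. Rank products used all 25 pairs of rats from different groups and 100 permutations, called at an FDR under 0.05, with Python 3.11.15, numpy 2.4.6, pandas 2.3.3 and scipy 1.17.1, and figures were drawn with matplotlib 3.10.9. Limma 3.58.1 ran in R 4.3.3 with Benjamini-Hochberg adjustment. Both were fitted over 31042 probe sets and tested on simulated data. In the 18 lists (201 entries, 165 measured) each gene was represented by its probe set of highest mean. Named were all probe sets of the members, the listed immune genes that were called, defining markers also where flat, the 10 probe sets most like Cd74, and at most 4 of the most variable genes of each other list. RT1-N2, Pf4, Ctsl, Marchf8, Mif and the flat genes beyond this rule were named after their values were seen. Alternatives were quantile normalization, median centring, filters on mean and on SD, a threshold of 0.01, rank sums, trended and robust variances, a replicate block, all probe sets of a gene, and leaving out rats. Promoter sequences came from RefSeq tables (GRCr8), in which all 5 members were found.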

Additional observations from a re-analysis of the deposited data

Results flagged for a closer look

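In each group of 5 rats, a rat standing far from the others was looked for in 41 varying probe sets (82 groups), by its gap to the nearest rat as a share of the range. Chance flags about 1 in 20 such groups, and 2 passed the critical value of 0.71. RT1-CE16 in Chow 5 was 7.57, against 6.53 to 6.72 in the other C rats, a gap of 0.819 of the range. RT1-T24-3 in Chow 5 was 7.37, against 7.98 to 8.10, a gap of 0.830 of the range. Chow 5 was also the highest C rat on 1371033_at of RT1-Bb (6.84), where Chow 2 (6.72) lay near it. No probe set of the members stood out in this way.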

How the results depend on the processing

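The differences of the members kept their direction under quantile normalization, median centring and the loss of any 1 rat. Without 1 rat they were 0.20 to 0.58 for Cd74, 0.15 to 0.42 for RT1-Da, 0.0075 to 0.045 for RT1-Ba 1370822_at, 0.044 to 0.12 for RT1-Bb 1371065_at and -0.48 to -0.12 for 1371033_at. Without Chow 1 and Chow 4, those of Cd74 (-0.10), RT1-Da (-0.084), RT1-Ba 1370822_at (-0.016) and RT1-Bb 1371065_at (-0.016) changed sign. That of 1371033_at stayed negative (-0.052). Likeness to Cd74 without any 1 rat was 0.82 to 0.96 for RT1-Ba and 0.89 to 0.97 for 1371065_at. It moved to 0.75 for RT1-Ba by Spearman rho, and without both rats to 0.62 for RT1-Ba and 0.79 for 1371065_at.

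Counts of rank product calls depended on the setting. Those higher in the C group (298) became 118 among probe sets above the median level, 1 among those with an SD above 0.1, 105 at a threshold of 0.01, 1 by rank sums and 47 without Chow 1 and Chow 4. Those lower (249) became 97, 4, 96 and 7 under the first 4 of these. Without 1 rat they ran from 120 (Chow 1) to 354 and from 131 (Powder 5) to 323, with 146 higher without Chow 4 and 163 without Powder 1, and 139, 132 and 158 lower without Powder 1, Powder 2 and Powder 4. No member was called with the SD filter. Limma called 0, and 1 without Powder 4, so 0 to 1. In the immune lists the 1 gene called higher became 2 with all probe sets counted, 0 by limma and 0 without Chow 1 and Chow 4. The 1 called lower became 0 by limma, with 2 at an unadjusted p under 0.05. The 15 leptomeningeal genes called higher became 0 by limma and 0 without both rats, when 8 were lower. The causes were not tested.

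Equal replicate numbers did not pair rats (correlations of deviations -0.23, -0.25, -0.33, 0.11 and 0.28). With the number as a replicate block, rank products called 213 higher and 323 lower and limma 0.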

Other observations

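Lists of other cell types that the tissue sample could hold were counted in the same way. Over all probe sets, 0.960% were called higher in the C group and 0.802% lower. Of 8 choroid plexus genes, 1 was called higher in the C group, Ttr, and its r with Cd74 was 0.31. Of 9 endothelial genes, 0 were called, and Kdr had an r of 0.69 with Cd74 over 10 rats and 0.28 without Chow 1 and Chow 4. Erythrocytes had 2 of 4 genes called higher, Hbb and Alas2, with r values of 0.09 and 0.03. Astrocytes had 2 of 7 called higher, Gfap (r 0.60, and 0.12 without these 2 rats) and Aqp4 (r 0.10, and -0.19 without them). Of 7 anterior pituitary genes, 2 were called higher, Cga and Tshb, and the other 5 were flat, Prl and Gh1 among them. Cga, the common subunit of pituitary glycoprotein hormones, was 9.85 in Chow 4 and 8.48 in Chow 5. It was between 6.36 and 6.64 in the other rats. Cga and Cd74 were thus both high in Chow 4. In Chow 1, the highest rat for Cd74, Cga was low (6.38). Of 13 neuropeptide and neuronal genes of the hypothalamus, 7 were called lower and 0 higher, and the r of the 9 varying ones with Cd74 ran from -0.58 to 0.23.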
